A study of Mus musculus with 6 samples.

Results

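Immediate early and AP-1 genes were followed as 10 members, Fos, Fosb, Jun, Junb, Jund, Egr1, Atf3, Ier2, Dusp6 and Klf10, out of 34203 genes in the deposited matrix. They were picked by symbol with earlier results on the same counts known, so their differences between conditions, classes and subclusters are described without a test. Immediate early genes are switched on within minutes of a stimulus without new protein synthesis, mostly through kinases that act on transcription factors already bound at their promoters. Several of them encode subunits of AP-1, a dimer of a Fos protein with a Jun protein that binds DNA and switches on later genes, and others encode inhibitors that end the response. They are known from neurons, glia and stem cells that leave quiescence, and also as a response to the enzymatic dissociation of tissue.

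Cells of the subventricular zone (SVZ) of adult mice were compared in 3 conditions, uninjured (no lesion), 1 day (PT D1) and 7 days (PT D7) after a photothrombotic lesion (PT), in which light activates Rose Bengal in the cortex. All mice carried Nestin-CreERT2 and R26-yfp and received tamoxifen, so Cre driven by Nestin labelled neural stem and progenitor cells (NSPCs) and their progeny in every group, controls included. Fluorescent NSPCs and CD11b+ CD45low microglia were sorted after papain digestion at 37°C and sequenced by mCEL-Seq2, which counts mRNA molecules by unique molecular identifiers (UMIs), in 2 libraries per condition. The number of mice per library was not given. The authors assigned the 658 cells kept to NSPCs (222), microglia (416) and mixed cells (20), and to subclusters whose names are used here.

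The summed UMIs of a library were between 82504 and 497292 in NSPCs (15 to 61 cells) and between 294984 and 468186 in microglia (54 to 84 cells). Libraries reused the same well barcodes and shared 47 to 108 cell numbers in pairs. The NSPC markers Sox2, Sox11, Dcx, Gfap and Slc1a3 had UMIs in the NSPCs of every library, and the microglial markers Cx3cr1, P2ry12, Csf1r, Tmem119 and C1qa in the microglia of every library. UMIs of one of these microglial markers were also present in 64.0% to 73.3% of the cells of each NSPC subcluster, and no sorted class lacks immediate early genes, so no share of cells could be set as a background for them. The choroid plexus and ependyma markers Ttr, Enpp2, Kl and Foxj1 moved with the conditions and summed to 1523 and 3791 CPM in the uninjured NSPC libraries against 44.4 to 109 CPM after PT, and to 10510 and 4648 CPM against 196 to 603 CPM in microglia. Kl had no UMI in any library of either class after PT, and the part of these markers in the results below was not tested. Microglia of cluster 3, named development-associated by the authors, stood apart: 35 of its 41 cells came from library 2 of PT D1, where they made up 35 of 76 microglia, so the medians over the members and the calls of listed genes in microglia are also given without that cluster.

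The bases before the annotated starts of the members differ in the short sequences that signal-dependent factors bind. Among the 500 bases before the annotated start of each gene, searched on both strands, the CArG box bound by serum response factor was found in Fos and Fosb, against 2.85% of 21770 protein-coding genes. They are shown because this box is the textbook route from growth factor signalling to Fos. Each line is read 5′ to 3′ on the gene's strand with the box in capitals, from chr12:85520345-85520374 (+) for Fos and chr7:19044223-19044252 (−) for Fosb in GRCm39.
Fos: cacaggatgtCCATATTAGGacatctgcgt
Fosb: tggccgagctCCTTATATGGctaattgcgt

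The sequence TGACNTCA, a form of the site for CREB/ATF and Jun dimers, was found in Jun, Jund, Atf3 and Ier2, against 10.6% of all genes. It is shown because Jun and Atf3 belong to the protein families that bind such letters. The capitals mark the site at chr4:94940487-94940514 (−) for Jun, chr8:71151375-71151402 (+) for Jund, chr1:190950246-190950273 (−) for the nearer to the start of the 2 sites of Atf3, and chr8:85389509-85389536 (−) for Ier2.
Jun: agcctcggggTGACATCAtgggctattt
Jund: cccacccccaTGACGTCAacccacaatg
Atf3: acctatgataTGACCTCAcactgccact
Ier2: ggtgttgcagTGACGTCActctcagtat

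The AP-1 site TGAGTCA, which shares no match with TGACNTCA, was found in none of the 10 windows and in 7.64% of all genes. The Egr site GCGNGGGCG was found in Fosb, Jun and Jund against 4.13% of genes, and TTCNNNGAA, the core bound by STAT factors, in Egr1 against 15.6%. Dusp6, Klf10 and Junb held none of the 5 motifs in this window. A match is a description of these letters and no measure of binding. Each window lies before the outermost annotated start of its gene, so promoters at other starts were not searched. A motif missing from a window is therefore not shown to be missing from the promoters of that gene. Junb (chr8:85701113-85705359, −), Ier2 (chr8:85387960-85389483, −) and Jund (chr8:71151599-71153265, +) lie on the same chromosome, and Klf10 at chr15:38291703-38300959 (−) and Dusp6 at chr10:99086564-99103361 (+).

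In NSPCs Fos, Junb, Egr1, Ier2, Dusp6 and Klf10 stood higher at PT D1 than in uninjured mice and lay near the uninjured level at PT D7, whereas Jun and Jund overlapped between uninjured mice and PT D1. Levels are given here as TMM-scaled CPM. These are the UMIs of a gene over the UMIs of the genes that passed the filter on low counts in that class and library. They are scaled to 1e6 with the TMM factor applied. Egr1, a zinc finger transcription factor, was at 57.5 and 62.9 CPM in uninjured NSPCs, 380 and 437 CPM at PT D1, and 79.4 and 48.5 CPM at PT D7. The PT D1 libraries lay far above all others, the uninjured and PT D7 libraries overlapped, and all 6 Egr1 UMIs of PT D7 library 1 came from 1 cell. The log2 fold change of Egr1 at PT D1 against uninjured, fitted by edgeR, was 2.73 (SE 0.33). The SE of each fitted fold change is its absolute value over the square root of the F statistic of the fit. No test of the members is read from it. Fos, Junb, Dusp6 and Klf10 passed the filter only through their PT D1 libraries, where they were highest. Their fitted fold changes and SEs below are therefore a description.

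Klf10, a zinc finger repressor first known as an early gene of TGF-β signalling, was at 9.58 and 19.4 CPM in uninjured NSPCs, 82.0 and 239 CPM at PT D1, and 26.5 and 17.1 CPM at PT D7, with a fitted log2 fold change at PT D1 of 3.31 (SE 0.53). The number of Klf10 UMIs was 1 and 8 in the uninjured libraries and 11 and 71 at PT D1. Junb, a Jun family subunit of AP-1, was at 0 and 31.5 CPM, 142 and 205 CPM, and 26.5 and 25.7 CPM in the 3 conditions (log2 fold change 2.87, SE 0.47). Of the 61 Junb UMIs of PT D1 library 2, 27.9% came from 1 cell.

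Fos, the founding subunit of the Fos family, was at 0 and 31.5 CPM in uninjured NSPCs, 67.1 and 145 CPM at PT D1, and 0 and 14.3 CPM at PT D7 (log2 fold change at PT D1 2.23, SE 0.58). Dusp6, a phosphatase that removes the activating phosphates from ERK, was at 28.7 and 4.84 CPM, 44.7 and 80.7 CPM, and 13.2 and 20.0 CPM, from only 3 and 2 UMIs in the uninjured libraries (log2 fold change 2.63, SE 0.80). Ier2, an immediate early nuclear protein, was at 0 and 14.5 CPM, 44.7 and 33.6 CPM, and 0 and 11.4 CPM. In each of these genes both PT D1 libraries were higher than both uninjured libraries, and Ier2 did not pass the filter on low counts. In PT D1 library 1, 1 cell held 5 of the 9 Fos UMIs (55.6%), and 1 cell held 5 of the 6 Ier2 UMIs (83.3%). The separation of Fos and Ier2 thus rests on few cells in that library.

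The remaining members of NSPCs did not separate the conditions at PT D1. Jun, the most abundant member, was at 355 and 411 CPM in uninjured NSPCs, 283 and 461 CPM at PT D1, and 437 and 311 CPM at PT D7. Jund, the Jun family subunit that most cells express without a stimulus, was at 201 and 285 CPM, 149 and 208 CPM, and 199 and 183 CPM. Fosb, which encodes a Fos family subunit, had 0 and 3 UMIs in uninjured NSPCs, 0 and 5 UMIs at PT D1, and 0 and 1 UMIs at PT D7. Atf3, a stress-induced member of the ATF family, had 0 and 5 UMIs, 0 and 5, and 0 and 1, so neither gene could be followed at this depth.

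**Figure D1:**
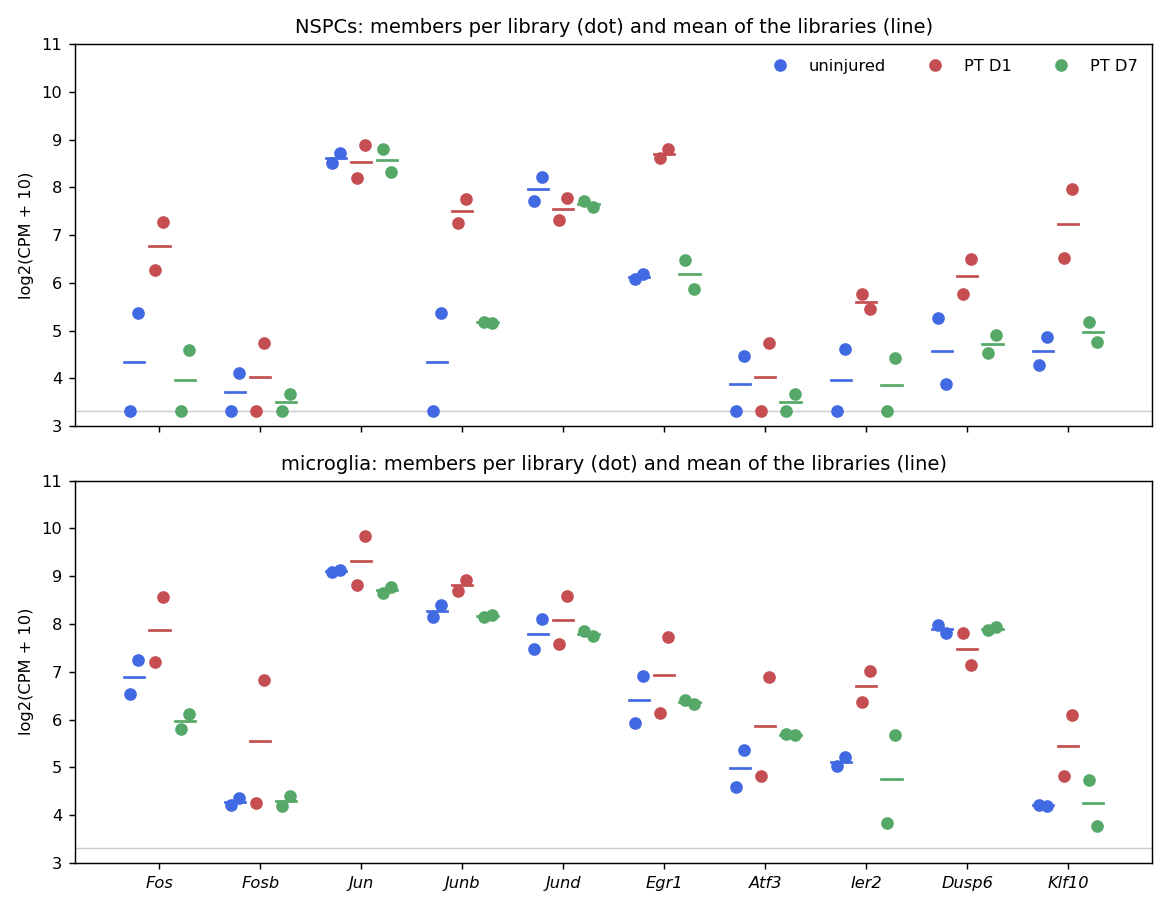
Levels of the 10 members in NSPCs (top) and microglia (bottom), as log2(CPM + 10), with 1 dot per library, a line at the mean of the 2 libraries and the grey line at 0 CPM. In NSPCs the PT D1 dots of Fos, Junb, Egr1, Ier2, Dusp6 and Klf10 lie above both uninjured dots, while in microglia this holds for Junb, Ier2 and Klf10.

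Counted over the members, 6 of 10 were higher in both PT D1 libraries than in both uninjured libraries of NSPCs and none was lower, beside 23.0% of the 4907 genes tested that were higher in this way and 22.0% that were lower. The members were chosen with this comparison known, so nothing is read from the count. Their median difference on the log2(CPM + 10) scale was 1.60, against 0.01 over all tested genes, and it was between 1.18 and 1.66 without any 1 library. At PT D7 against uninjured, none was higher and 1, Jund, was lower (17.2% of tested genes were lower), with a median of -0.07. The Jund libraries overlapped without TMM scaling, at 181 and 237 CPM against 182 and 162 CPM, and its difference turned to 0.70 in cells with at most 10% mitochondrial UMIs. That limit left 2 and 11 NSPCs in the uninjured libraries and 4 and 14 at PT D7. Between PT D7 and PT D1, which share the PT D1 libraries with the first comparison, the same 6 genes were lower (background 21.6%) with a median of -1.58.

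The subclusters of the NSPCs did not share this pattern equally. In the SVZ, type B cells are the stem cells, which pass from quiescent to activated, type C cells are their fast-dividing progeny, and neuroblasts are the migrating young neurons. In quiescent type B cells Egr1 was at 16.9 CPM in uninjured mice (17 cells), 775 CPM at PT D1 (18 cells) and 12.6 CPM at PT D7 (15 cells), here in CPM of the subcluster without TMM scaling. Junb was at 25.3, 475 and 75.6 CPM in the same cells and Fos at 16.9, 262 and 0 CPM.

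In activated type B cells Egr1 was at 28.9, 365 and 66.1 CPM (8, 25 and 12 cells), and Klf10 at 0, 252 and 33.0 CPM. Type C cells had Egr1 at 62.6, 173 and 56.7 CPM (15, 9 and 23 cells). In neuroblasts Egr1 was at 72.7, 86.4 and 45.6 CPM (35, 19 and 26 cells) and Fos at 40.4, 37.0 and 15.2 CPM. The subclusters thus lay farther apart in Egr1 at PT D1 than in the other conditions.

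**Figure D2:**
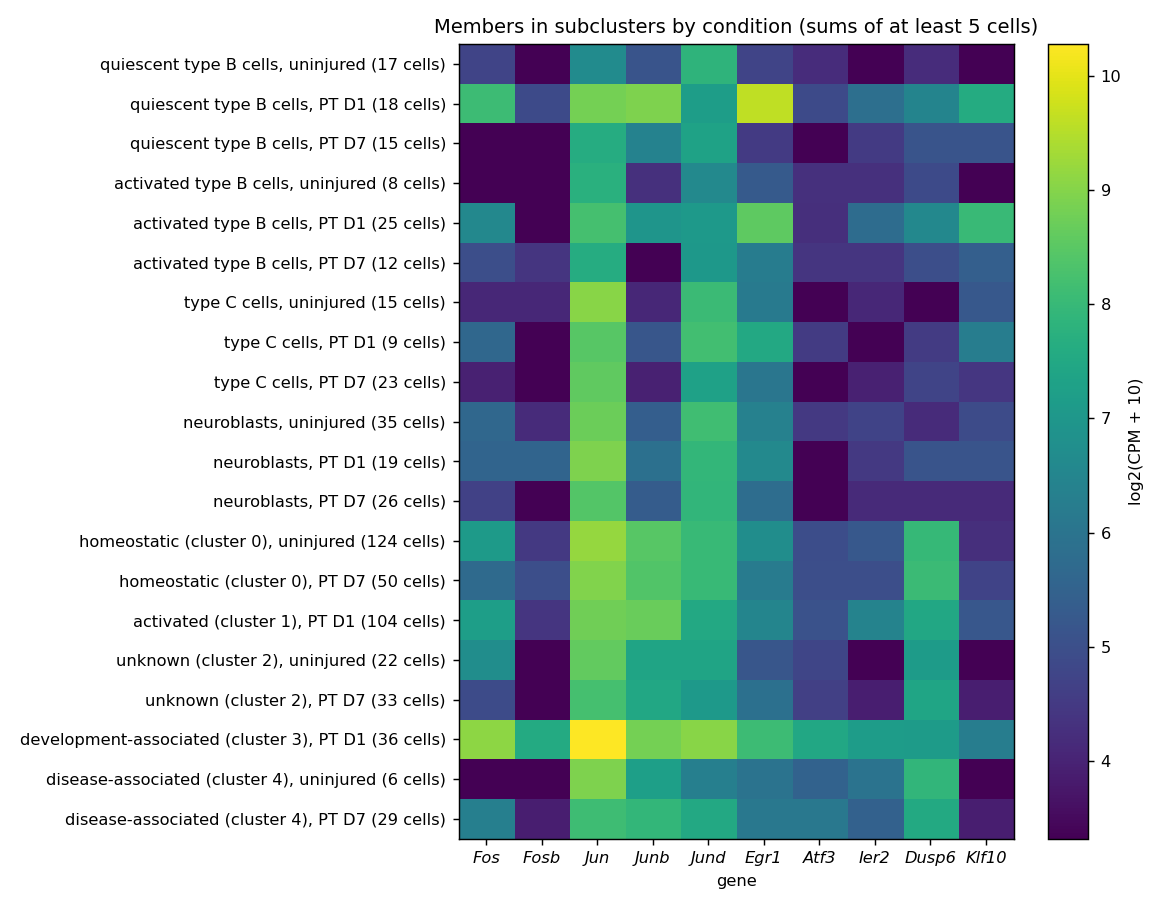
Level of each member, as log2(CPM + 10) by colour, in every subcluster of NSPCs (top 12 rows) and microglia by condition where at least 5 cells were summed over both libraries. Egr1 in quiescent type B cells at PT D1 (775 CPM) and Jun in cluster 3 microglia at PT D1 (1231 CPM) stand out, and Jun and Jund are seen in every row.

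Quiescent and activated type B cells were joined, and type C cells joined with neuroblasts, a split chosen after these levels had been seen. In type B cells Egr1 had 2 and 3 UMIs in the uninjured libraries (7 and 18 cells, 33.9 and 18.4 CPM), 45 and 116 UMIs at PT D1 (10 and 33 cells, 494 and 496 CPM), and 0 and 7 UMIs at PT D7 (4 and 23 cells, 0 and 48.2 CPM). Both PT D1 libraries gave nearly the same level, far above the other 4. Klf10 had no UMI among 222220 UMIs of uninjured type B cells and 7 and 68 UMIs at PT D1. Against a limit of 3 counts over the uninjured group, its observed level was 5.69-fold in library 1, 21.5-fold in library 2 and 17.1-fold over both. The counting error of the PT D1 UMIs is left out of these ratios. In library 1 the 7 UMIs came from 5 of 10 cells, and 1 cell of library 2 held 15 of the 68. At PT D7 Klf10 had 2 and 3 UMIs (80.5 and 20.6 CPM).

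Junb had 0 and 4 UMIs in uninjured type B cells and 18 and 56 at PT D1 (198 and 239 CPM), and Fos had 0 and 2 against 8 and 38 (87.8 and 162 CPM). Jun, which did not move over all NSPCs, was at 186 and 129 CPM in uninjured type B cells and at 274 and 363 CPM at PT D1. Jund was at 136 and 165 CPM against 110 and 137 CPM. In type B cells 7 of the 10 members were higher in both PT D1 libraries than in both uninjured ones, Fos, Jun, Junb, Egr1, Ier2, Dusp6 and Klf10, beside 24.0% of genes. At PT D7 5 of them, Fos, Junb, Egr1, Ier2 and Dusp6, were lower than at PT D1 (22.3% of genes) and none was higher (14.4%). Junb and Klf10 were higher at PT D7 than in uninjured mice (14.1%), but from few UMIs. Junb had 2 and 4 UMIs at PT D7 (80.5 and 27.5 CPM) against 0 and 4 (0 and 24.5 CPM). The 2 UMIs of PT D7 library 1 came from 1 of 4 cells.

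In type C cells and neuroblasts, 2 of the 10, Egr1 and Klf10, were higher in both PT D1 libraries, beside 22.8% of genes. Egr1 was there at 70.0 and 68.8 CPM in uninjured mice (9 and 41 cells) and 114 and 135 CPM at PT D1 (9 and 19 cells), and Fos at 0 and 32.9 CPM against 19.0 and 48.2 CPM. In uninjured mice none of the members was higher in both type B libraries than in both libraries of the later cells, and Jun, Jund, Egr1 and Klf10 were lower, beside 21.9% and 22.3% of genes. At PT D1 Fos, Junb, Egr1, Ier2, Dusp6 and Klf10 were higher (24.9% of genes) and Jund was lower (21.5%), where Klf10 in library 1 separated by less than 1 CPM (76.8 CPM against 76.2 CPM). Whether the change differs between these cells was not tested, since the subclusters were drawn from the same counts and hold few cells per library.

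**Figure D3:**
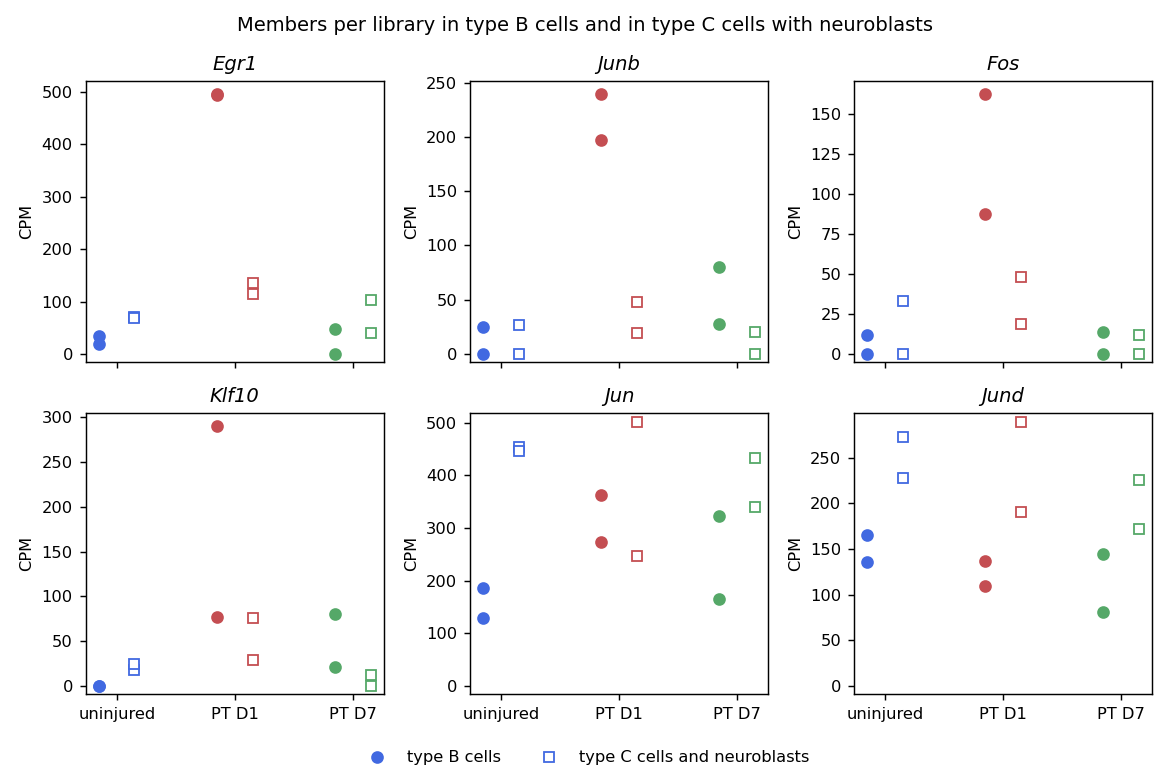
Level in CPM of 6 members in each library for type B cells (filled circles) and for type C cells with neuroblasts (open squares), by condition. The type B circles of Egr1 at PT D1 overlap at 494 and 496 CPM, above the open squares at 114 and 135 CPM, while for Jund the circles lie below the squares in every condition.

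Type B cells were 43 of the 71 NSPCs at PT D1 (60.6%) and gave 67.5% of the UMIs, but 89.0% of the Egr1 UMIs (161 of 181), 92.5% of the Junb UMIs (74 of 80) and 91.5% of the Klf10 UMIs (75 of 82). Of the Jund UMIs they gave 51.2%. They were 25 of 75 NSPCs in uninjured mice, so the makeup of the NSPC sums differed between conditions. The 4 subclusters were also given the same mix in every library, each weighted by its number of cells over all libraries. The log2(CPM + 10) difference of Egr1 at PT D1 was then 2.49 in place of 2.57, that of Junb 3.12 in place of 3.15 and that of Klf10 2.09 in place of 2.66. Ier2 came to 1.23 in place of 1.64, Dusp6 to 1.24 in place of 1.56, and Jun rose to 0.21 in place of -0.08. The median over the 10 members was 1.23 in place of 1.60.

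Single type B cells at PT D1 carried several members at once. The median cell had UMIs of 5 members at PT D1 and of 2 members in uninjured mice and at PT D7. At least 3 members were present in 33 of 43 cells at PT D1 (76.7%), 7 of 25 uninjured cells (28.0%) and 9 of 27 at PT D7 (33.3%). By library these shares were 80.0% and 75.8% at PT D1, 14.3% and 33.3% in uninjured mice, while the PT D7 libraries gave 25% and 34.8%. In cells brought down to 1000 UMIs each, at least 3 members remained in 23.3% of cells at PT D1, which were 1 of 10 cells in library 1 and 9 of 33 (27.3%) in library 2. They remained in none of 25 uninjured cells and 27 cells at PT D7. A count of 0 there allows up to 12% and 11.1% of cells with UMIs of 3 members at that depth. These limits pool cells, which are not replicates of a condition. The share of library 1 lay below both limits, and no separation is read from library 2. The median cell then had UMIs of 1 member at PT D1 and in uninjured mice and of none at PT D7. Egr1 had a UMI in 29 of 43 type B cells at PT D1 (67.4%, or 23.3% at 1000 UMIs). In uninjured type B cells this was 4 of 25 (16.0%, or 4.00%). Several members in 1 cell were not particular to type B cells at PT D1. Of type C cells and neuroblasts 56.0% (uninjured), 39.3% (PT D1) and 28.6% (PT D7) held at least 3 members. In microglia these shares were 74.2%, 78.9% and 61.4%. At 1000 UMIs they were 4.0%, 3.57% and 2.04% in type C cells and neuroblasts and 14.2%, 19.7% and 14.9% in microglia.

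In microglia the members were higher at PT D1 mainly in 1 of the 2 libraries. Fos was at 82.1 and 141 CPM (TMM scaled) in uninjured microglia, 137 and 367 CPM 1 day after PT, and 45.9 and 59.3 CPM after 7 days. The first PT D1 library lay between the uninjured libraries, and both PT D7 libraries lay below them. Egr1 was at 51.0 and 110 CPM, 60.8 and 202 CPM, and 75.2 and 70.5 CPM, and here all conditions overlapped. Jun was at 538 and 554 CPM, 438 and 906 CPM, and 393 and 430 CPM.

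Fosb had 3 and 5 UMIs in uninjured microglia, 3 and 43 UMIs at PT D1, and 2 and 3 UMIs at PT D7, so that library 2 of PT D1 held most of them. Atf3 followed with 14.2 and 31.1 CPM, 18.2 and 109 CPM, and 41.8 and 40.8 CPM. Jund was at 167 and 264 CPM, 182 and 374 CPM, and 221 and 204 CPM. For these genes the second PT D1 library was the highest of the 6 and the first lay within the uninjured range or near it.

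Both PT D1 libraries of microglia were higher than both uninjured ones in 3 members. Junb was at 272 and 326 CPM in uninjured microglia, 404 and 474 CPM at PT D1, and 272 and 282 CPM at PT D7 (log2 fold change at PT D1 0.55, SE 0.24). Ier2 was at 22.7 and 27.0 CPM, 72.9 and 119 CPM, and 4.18 and 40.8 CPM (log2 fold change 1.94, SE 0.51). Klf10 had 3 and 4 UMIs, 6 and 24, and 4 and 1. Dusp6 went the other way in PT D1 library 2, with 244 and 214 CPM in uninjured microglia, 216 and 131 CPM at PT D1, and 225 and 234 CPM at PT D7.

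These 3 of 10 members stand beside 27.2% of the 4846 genes tested in microglia that were higher in this way. No label pairs libraries of the same number, and their deviations were weakly correlated in microglia (0.22 between uninjured and PT D1). Between libraries of the same number 8 members (all but Jun and Dusp6) were higher at PT D1 in both pairs, beside 34.8% of genes. Dusp6 was lower, beside 31.8%. This count was added after the data were seen, and the members were chosen with this comparison known, so nothing is read from either count. The median log2(CPM + 10) difference of the members was 0.71, against 0.03 over all genes. This median was 0.21 without the cells of cluster 3, -0.07 without PT D1 library 2, 1.46 without PT D1 library 1, 0.43 without uninjured library 1 and 1.10 without uninjured library 2. At PT D7 against uninjured, Atf3 was higher (background 19.1%), with a difference that turned to -0.46 after thinning to 1000 UMIs, and Fos and Jun were lower (20.3%). The median there was -0.02, or -0.24 without TMM scaling and -0.08 without cluster 3. Without TMM scaling Junb and Dusp6 were also lower at PT D7, and Dusp6 was lower at PT D1, than in uninjured microglia. Between PT D7 and PT D1, 5 members (Fos, Jun, Junb, Ier2 and Klf10) were lower, beside 24.1% of genes, and Dusp6 was higher, beside 22.7%. The Dusp6 libraries overlapped without TMM scaling, at 197 and 121 CPM against 183 and 213 CPM, and its difference turned to -0.66 in cells brought down to 1000 UMIs each. The median over the members was -0.62, and it became -0.28 without cluster 3, -0.02 without PT D1 library 2 and -1.25 without PT D1 library 1.

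In the same pairs, Atf3 was higher at PT D7 than in uninjured microglia (27.5% of genes) and Fos, Jun and Junb were lower (29.5%). Against PT D1, Dusp6 was higher at PT D7 in both pairs (31.6%) and Fos, Fosb, Jun, Junb, Ier2 and Klf10 were lower (33.0%). The number of the PT D7 libraries was read from cell names, so these pairs rest on a number that no label states.

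Cluster 3 held the high values of PT D1 library 2. Within that library, in CPM without TMM scaling, Fos was at 542 CPM in the 35 cells of cluster 3 and 140 CPM in the other 41 microglia, next to 125 CPM in library 1. Fosb was at 178 and 17.5 CPM, Jun at 1220 and 460 CPM, Jund at 501 and 193 CPM, Egr1 at 264 and 110 CPM and Atf3 at 173 and 30.7 CPM. Junb, at 424 and 447 CPM, and Dusp6, at 118 and 123 CPM, were not higher in cluster 3, whereas 8 of the 10 members were, beside 52.5% of 4846 genes. Klf10 is among the 8, at 68.3 and 39.4 CPM, but 10 of its 15 UMIs in cluster 3 came from 1 cell. It had a UMI in 17.1% of the cells of cluster 3 and in 19.5% of the others. The clusters were drawn from the same counts, so no test is given.

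**Figure D4:**
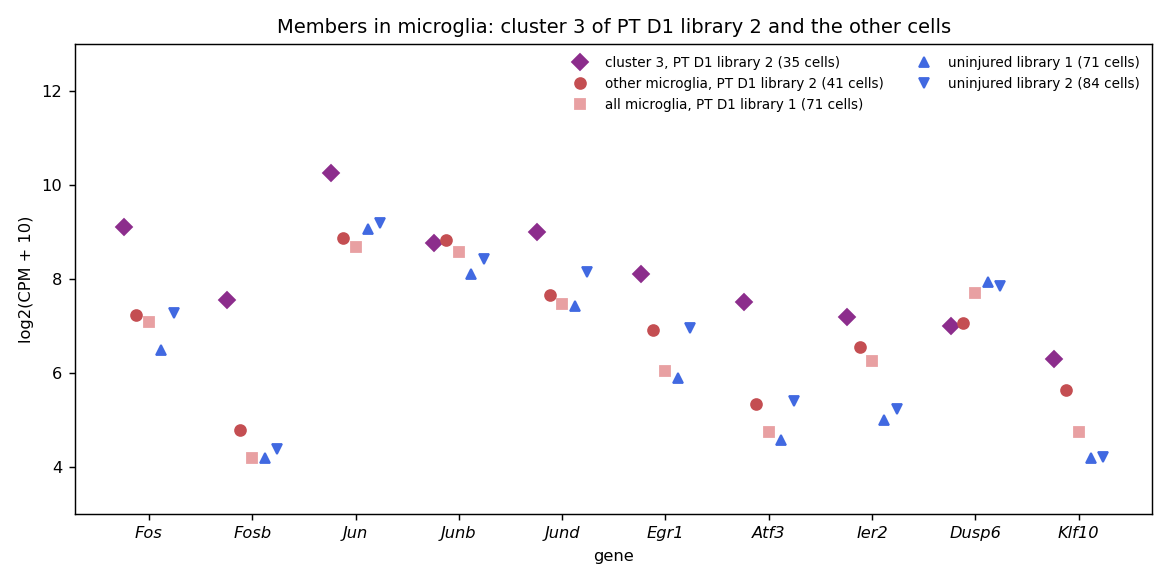
Levels of the members as log2(CPM + 10) in cluster 3 of PT D1 library 2 (35 cells), in the other 41 microglia of that library, and in all microglia of PT D1 library 1 and of both uninjured libraries. The diamonds of cluster 3 lie above all other symbols for Fos, Fosb, Jun, Jund, Egr1, Atf3, Ier2 and Klf10 but not for Junb and Dusp6. For Klf10, 10 of the 15 UMIs of cluster 3 came from 1 cell.

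Cluster 3 was also set apart by genes of stratified epithelia, looked up after its levels had been seen. Krt12, a keratin of the corneal epithelium, was at 13830 CPM in cluster 3 with UMIs in 41 of 41 cells and at 884 CPM in the other microglia with UMIs in 270 of 375 cells. Krt5 was at 7092 against 442 CPM and Krt6a at 11890 against 667 CPM. The 5 microglial markers summed to 2908 CPM in cluster 3, 4574 CPM in cluster 1 and 9811 CPM in cluster 0, and 39 of the 41 cells had a UMI of one of them. Krt12 was also present in NSPCs, at 155 to 779 CPM, with the highest level in PT D1 library 2. The part of these transcripts in the levels of the members was not tested.

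The other microglial clusters differed in the members as well. In homeostatic microglia (cluster 0) Jun was at 568 CPM in uninjured mice (124 cells) and 491 CPM at PT D7 (50 cells), Junb at 345 and 324 CPM, and Fos at 128 and 43.2 CPM. Microglia of cluster 2, which the authors named unknown, were lower, with Jun at 383 and 288 CPM in uninjured mice (22 cells) and at PT D7 (33 cells), Junb at 157 and 169 CPM, and Fos at 95.7 and 19.8 CPM. Their mean over the members on the log2(CPM + 10) scale was 5.71 and 5.67, against 6.64 and 6.50 in cluster 0. Activated microglia (cluster 1), all 104 of them from PT D1, had Jun at 426, Junb at 402, Fos at 138 and Ier2 at 76.5 CPM. In disease-associated microglia (cluster 4) at PT D7 (29 cells) Jun was at 268, Junb at 233 and Fos at 69.4 CPM. Since cluster 1 was found only at PT D1, cluster and condition cannot be told apart there.

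Set against each other within a library, microglia carried more of most members than NSPCs. In CPM without TMM scaling, 6 of the 10, Fos, Fosb, Junb, Atf3, Ier2 and Dusp6, were lower in NSPCs in all 6 libraries, beside 18.5% of 6471 genes. Fosb passed the filter in neither class and is not among those genes. In library 1 of the 3 conditions it had 0 UMIs in NSPCs, against 3, 3 and 2 UMIs in microglia. Atf3 also had 0 UMIs in NSPCs of these libraries, against 5 (uninjured), 6 (PT D1) and 10 (PT D7) in microglia. Ier2 had 0 UMIs against 1 in PT D7 library 1. Such counts do not settle the order of the classes in these libraries. Dusp6 had a median over libraries of 21.8 CPM in NSPCs (range 4.02 to 71.1) and 205 CPM in microglia (121 to 236), and Junb of 25.2 CPM (0 to 181) and 299 CPM (220 to 436), with ranges that did not overlap. Fos, at 19.4 CPM (0 to 127) and 102 CPM (37.3 to 337), was lower in NSPCs within each library although the ranges overlapped.

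Klf10 was the 1 member higher in NSPCs in all 6 libraries, beside 42.9% of genes, with a median of 20.2 CPM (8.61 to 210) against 11.1 CPM (3.37 to 53.6). In uninjured library 1 this was 8.61 against 8.24 CPM, from 1 UMI in NSPCs and 3 in microglia, which does not settle the order there. Egr1 had almost equal medians, 62.5 CPM (43.0 to 385) and 62.6 CPM (49.4 to 185), and was higher in NSPCs in 4 libraries, among them both of PT D1. Jund did not differ in its medians either, 181 and 183 CPM. The median difference over the members, NSPCs minus microglia, was -0.90 on the log2(CPM + 10) scale. Without cluster 3 it was -0.84, the same 6 members were lower in NSPCs in all 6 libraries and Klf10 was higher, beside 18.2% and 43.0% of genes, an alternative added after the data were seen. In NSPCs the order of the median levels ran from Jun (330 CPM) over Jund to Egr1, and in microglia from Jun (461 CPM) over Junb and Dusp6 to Jund. The ranges of neighbours in these orders overlapped, except those of Jun (265 to 406 CPM) and Jund (139 to 237 CPM) in NSPCs. These levels count 3′ ends of molecules, which do not depend on transcript length.

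Other genes of the early response were tested in lists fixed by name, 120 genes in all of which 118 were in the matrix. The lists were chosen with earlier results of these data known. Their p-values carry this limit, and nothing is read from the number of listed genes called beside the share of all genes. In NSPCs 50 of them passed the filter, and at PT D1 5 rose and 1 fell by edgeR's quasi-likelihood test at an adjusted p under 0.05, next to 1.04% and 1.08% of all genes. Cyr61, a secreted matrix protein and target of SRF and YAP, rose by a log2 fold change of 3.29 (SE 0.67, adjusted p = 0.00715 in edgeR). It was at 0 and 16.9 CPM in uninjured NSPCs and 44.7 and 192 CPM at PT D1. Cd44, a hyaluronan receptor on the list of reported AP-1 targets, rose by 2.88 (SE 0.66, adjusted p = 0.0183 in edgeR). Socs3, the feedback inhibitor of STAT3 signalling, rose by 2.54 (SE 0.56) and Bhlhe40, a circadian repressor, by 2.41 (SE 0.57). Nfkbia, the inhibitor of NF-κB, rose by 1.27 (SE 0.34). Cyr61, Cd44 and Bhlhe40 passed the filter on low counts only through their PT D1 libraries, where they were highest. Their p-values carry this limit as well.

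Hspa8, a constitutive chaperone, fell in NSPCs from 604 and 409 CPM to 224 and 219 CPM (log2 fold change -1.15, SE 0.27, adjusted p = 0.0213 in edgeR), although its log2 fold change was 0.11 in cells with at most 10% mitochondrial UMIs. That limit left 2 and 11 NSPCs in the uninjured libraries and 2 and 15 at PT D1. The other 5 heat shock genes tested did not pass. None of the 6 other AP-1 genes, the 6 phosphatases and feedback inhibitors or the 9 upstream kinase and SRF genes tested passed the threshold in NSPCs at PT D1. The median log2 fold change of the 50 genes was 0.59, against 0.03 over all genes. DESeq2 gave no adjusted p for Cyr61, Cd44, Socs3 and Bhlhe40, so among the 6 genes only Nfkbia and Hspa8 could be called by it. DESeq2 called none of the 50, 12 were called without TMM scaling, and without PT D1 library 2 there were 2 calls and none of the 6. The call count was 3 without uninjured library 2, 10 without uninjured library 1, 11 without PT D1 library 1, 17 without PT D7 library 1 and 12 without PT D7 library 2.

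At PT D7 against uninjured, none of the 50 genes passed in NSPCs with edgeR or DESeq2, where edgeR called 4 of 4907 genes (none that rose and 0.0815% that fell) and gave 230 of them an unadjusted p under 0.05. Between PT D7 and PT D1, 4 genes fell and none rose, beside 0.408% and 0.224% of genes. They were Ier3, an early survival factor (log2 fold change -3.54, SE 0.83), Cyr61 (-3.23, SE 0.70), Socs3 (-2.63, SE 0.61) and Klf9, a Krüppel-like factor induced by glucocorticoids (-1.82, SE 0.35). DESeq2 called none of the 4, and leaving out PT D1 library 2 or PT D7 library 2 left no call, while leaving out any of the other 4 libraries gave 8 to 10.

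In microglia 70 of the listed genes passed the filter, of which 15 rose and 1 fell at PT D1, next to 2.72% and 2.97% of all genes tested. The 4 largest rises were Dusp2, a nuclear MAP kinase phosphatase (log2 fold change 4.83, SE 1.12), Plaur, the urokinase receptor (4.25, SE 0.71), Ier3 (3.30, SE 0.32) and Klf9 (3.14, SE 0.42). Ier3 was at 31.1 and 60.2 CPM in uninjured microglia, 440 and 486 CPM at PT D1 and 50.1 and 55.6 CPM at PT D7, and both libraries of PT D1 were alike. Dusp2 was at 0 and 2.08 CPM in uninjured microglia and 30.4 and 55.9 CPM at PT D1, so its fold rests on few UMIs. Pmepa1, an inhibitor of TGF-β signalling, fell by 1.47 on the log2 scale (SE 0.25), from 665 and 546 CPM to 240 and 197 CPM.

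Of the list of other AP-1 genes, 3 of 9 tested rose in microglia, Fosl2, Jdp2 and Atf4, named here after their values were seen. The calls of all 3 were lost without TMM scaling. Those of Fosl2 and Jdp2 were also lost without cluster 3, and those of Fosl2 and Atf4 with DESeq2. Fosl2, a Fos family subunit, was at 19.8 and 16.6 CPM in uninjured microglia and 39.5 and 131 CPM at PT D1. Jdp2, a repressor that pairs with Jun proteins, was at 11.3 and 18.7 CPM against 54.7 and 68.0 CPM, and fell again at PT D7 to 4.18 and 0 CPM. Of the immediate early transcription factors 4 of 9 rose, of the phosphatases 2 of 6, of the other early response genes 4 of 16 and of the reported AP-1 targets 2 of 7. None of the 11 upstream genes and none of the 6 heat shock genes passed.

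Without cluster 3, an alternative added after the data were seen, 15 listed genes were called in microglia at PT D1, and 13 of these were among the 16. With the library number as a block 28 were called, all 16 among them, and with DESeq2 8. Leaving out uninjured library 1 or uninjured library 2 left 5 calls each, and leaving out PT D1 library 1 gave 25. At PT D7 against uninjured none of the 70 was called by edgeR or DESeq2, 2 were called with the block, 1 without cluster 3, 2 without PT D1 library 1, 2 without PT D1 library 2 and 1 without PT D7 library 2, beside 0.103% of genes that rose and 0.0619% that fell. An unadjusted p under 0.05 was found for 355 of 4846 genes.

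Between PT D7 and PT D1 13 listed genes fell in microglia and none rose, beside 2.1% and 1.69% of genes. The largest falls were Jdp2 (log2 fold change -4.74, SE 0.82), Klf9 (-3.23, SE 0.47), Plaur (-3.21, SE 0.70) and Ier3 (-3.12, SE 0.33). With the block 28 were called, and without cluster 3 19, all 13 among them. Leaving out PT D7 library 1 left 7 calls, leaving out PT D7 library 2 left 8, and leaving out PT D1 library 1 gave 27. The PT D1 libraries enter this comparison and the one with uninjured mice alike.

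**Figure D5:**
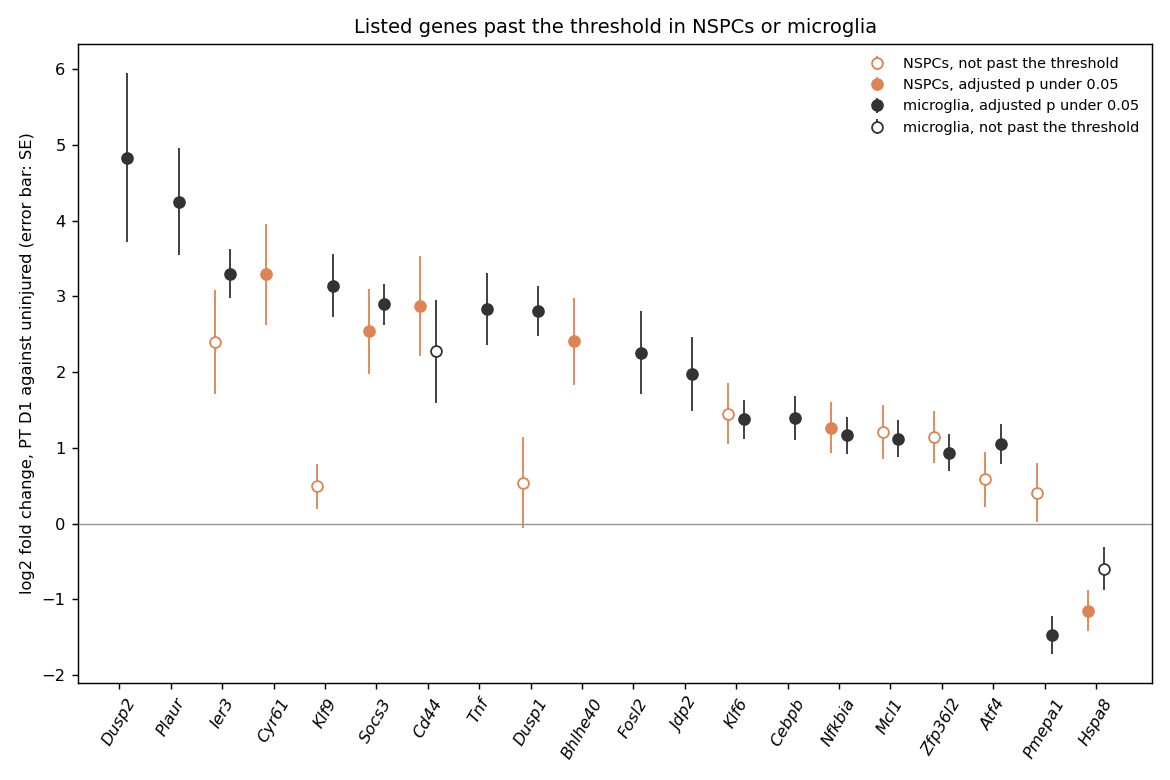
Log2 fold change at PT D1 against uninjured, with its SE as the error bar, for the listed genes past the threshold in NSPCs (orange) or microglia (black), with open circles where the gene did not pass in that class and no circle where it was not tested. Socs3 and Nfkbia are filled in both classes, and Klf9 lies at 0.49 in NSPCs and 3.14 in microglia.

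Socs3 and Nfkbia passed in both classes at PT D1. In NSPCs Nfkbia lay close to the threshold (adjusted p = 0.0475 in edgeR). Its call there was lost with the library number as a block, with DESeq2 and in cells with at least 2000 UMIs. It was also lost with the mitochondrial limit and without cells holding 3 markers of the other class. A test of the difference between the changes in NSPCs and microglia, by edgeR on the 12 sums with the library as a term, called 1 of 81 listed genes at PT D1, beside 0.24% of 7514 genes. It was Klf9, whose change in NSPCs was lower by -2.56 on the log2 scale (SE 0.55, adjusted p = 0.00654 in edgeR). Klf9 was at 163 and 167 CPM in uninjured NSPCs and 201 and 256 CPM at PT D1, against 19.8 and 14.5 CPM and 176 and 129 CPM in microglia. Leaving out either uninjured library or PT D1 library 1 lost the call. In the test at PT D7 none of the 81 was called, beside 0.0399% of genes.

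The genes whose levels over subclusters and conditions were most like the mean of the members were named by a fixed rule, as a description. Over the 12 sums of NSPCs these were Mcl1, an anti-apoptotic protein of the Bcl-2 family (Pearson's r = 0.85), Lypla2, Srsf5, Psmd8 and Zfp36, an RNA-binding protein that destabilises mRNAs (r = 0.81), among 3162 genes compared. The mean of the members on the log2(CPM + 10) scale was highest in quiescent type B cells at PT D1 (7.23) and lowest in activated type B cells of uninjured mice (4.73). Over the 8 sums of microglia they were Gm9573, Gsto1, Aldh3a1, Lypd2 and Sfn (r = 0.99 to 0.98, among 2070 genes), which were highest in cluster 3, the sum with the highest mean of the members (8.10, against 5.67 to 6.73 in the others). The sums share libraries and differ in depth, and the likeness in microglia rests on that 1 cluster.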

How the data were processed

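Cells of 6 mCEL-Seq2 libraries, 2 per condition, were analysed. The deposited matrix holds UMI counts per gene and cell without normalization. Per the labels and the study's methods, the authors demultiplexed with bcl2fastq 2.17.1.14 and used GRCm39 as genome. Which aligner they ran is not given in the sources used here. Cells had to exceed 1000 UMIs, lie inside 3 median absolute deviations and hold no more than 25% mitochondrial UMIs, a percent column that the authors deposited with the cells. Their class and subcluster names were used, and 13 other columns describing the cells were not. The library of each PT D7 cell was read from the last digit of its name, which no label states. Of the marker genes, 1 of the NSPC list and 1 of the microglial list are not reported here and enter only the filter on cells with markers of the other class. Doublets were not called here, and the 20 mixed cells were left out of the sums. The 92 spike-in rows held 0 UMIs.

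UMIs were summed per class and library and fitted over the 3 conditions by edgeR 4.0.16 (filterByExpr, TMM, quasi-likelihood, Benjamini-Hochberg over all genes tested, threshold 0.05) in R 4.3.3. CPM were scaled to 1e6 UMIs of that sum. Where TMM scaling is stated, only UMIs of genes that passed the filter entered the sum, and the TMM factor was applied. Levels were compared as log2(CPM + 10). The members and the gene lists were chosen with earlier results of these data known, and no test of the members was read. In NSPCs Fos, Junb, Dusp6 and Klf10 passed the filter only through their PT D1 libraries, where they were highest. Their fitted fold changes are therefore a description. Of the listed genes called, at least Cyr61, Cd44, Bhlhe40 and Ier3 in NSPCs and Jdp2 in microglia also passed only through PT D1 libraries. Their p-values carry this limit. Where more than 8 listed genes were called, the 4 largest rises and falls were named. Likeness to the mean of the members was computed over sums of at least 5 cells for genes above a mean of 50 CPM, and the 5 highest were named. Same-numbered libraries were checked for pairing by the correlation of their deviations from the group means, which was 0.095, -0.06 and -0.04 in NSPCs and 0.22, 0.19 and 0.26 in microglia, so counts from a fit blocked on the library number stand beside the microglial ones. With no label that separates animals, p-values measure the spread between these libraries. Whether that spread holds differences between animals is not known. The paper gives 3 plates for the series and does not say which libraries shared one. Plate and condition may therefore not be separable. Intervals and limits cover counting error only. Cells thinned to 1000 UMIs, DESeq2 1.42.0, other filters on cells and leaving out each library served as alternatives. The fits were tested on simulated counts. Motifs were searched in GRCm39 with gene starts of GENCODE vM39.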

Additional observations from a re-analysis of the deposited data

Results flagged for a closer look

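The change of Klf9 at PT D1 differed between the classes by a test of the difference itself (-2.56 on the log2 scale, NSPCs minus microglia, SE 0.55, adjusted p = 0.00654 in edgeR). The adjusted p of this difference was between 0.00399 and 0.627 over 8 alternatives.

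Dusp6 moved in opposite directions from PT D1 to PT D7, with a log2(CPM + 10) difference of -1.42 in NSPCs and 0.42 in microglia. In each class both libraries of one time lay on the same side of both libraries of the other, and the difference between the classes was not tested. Neither direction held under every alternative: in microglia the libraries overlapped without TMM scaling and the difference was -0.66 after thinning to 1000 UMIs per cell, and in NSPCs it was 0.93 in cells with at most 10% mitochondrial UMIs. That limit left 2 and 15 NSPCs in the PT D1 libraries and 4 and 14 at PT D7.

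The 20 mixed cells, which enter no comparison, carried the members too. Their summed level was 544 CPM in uninjured mice (4 cells), 3290 CPM at PT D1 (8 cells) and 858 CPM at PT D7 (8 cells). Cells were too few to separate libraries.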

How the results depend on the processing

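Among listed genes called in NSPCs at PT D1 against uninjured (6), 12 were called without TMM scaling, 12 without a filter on low counts, 0 with DESeq2, 0 in cells with at most 10% mitochondrial UMIs, 1 without cells holding 3 markers of the other class, 0 after thinning to 1000 UMIs and 2 to 17 without 1 library. Between PT D7 and PT D1 in NSPCs (4), the counts were 10 without the filter, 2 with the library number as a block, 0 with DESeq2, 0 with the mitochondrial limit, 1 without cells with other markers, 0 after thinning and 0 to 10 without 1 library. The mitochondrial limit and the thinning left 9 and 6 of the 50 listed genes tested. For PT D1 against uninjured in NSPCs, DESeq2 gave no adjusted p for Cyr61, Cd44, Socs3 and Bhlhe40. With the block, 5 were called at PT D1 in NSPCs, where the numbers did not pair the libraries. In microglia at PT D1 (16), 26 were called without the filter, 28 with the block, 8 with DESeq2, 3 after thinning and 5 to 25 without 1 library. At PT D7 against uninjured in microglia (0), 2 were called without the filter, 2 with the block, 1 with the mitochondrial limit, 1 without cluster 3 and 0 to 2 without 1 library. Between PT D7 and PT D1 in microglia (13), 27 were called without the filter, 28 with the block, 2 after thinning and 7 to 27 without 1 library. The change that differed between classes at PT D1 (1) gave 0 to 2 calls without 1 library. The cause of these moves was not tested.

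The median difference of the members at PT D7 against uninjured was -0.55 in NSPCs after thinning, and in microglia -0.24 without TMM scaling, -0.32 after thinning and -0.27 to 0.038 without 1 library. Without 1 library it was -1.88 to -1.18 for PT D7 against PT D1 in NSPCs, -0.066 to 1.46 for PT D1 against uninjured in microglia and -1.25 to -0.021 for PT D7 against PT D1 in microglia. Between classes it was -1.15 without cells holding 3 markers of the other class. With the mitochondrial limit the sign turned for Hspa8 in NSPCs at PT D1 (0.11), Jund in NSPCs at PT D7 against uninjured (0.70) and Dusp6 in NSPCs at PT D7 against PT D1 (0.93). This limit left 2 to 15 NSPCs per library. After thinning the sign turned in microglia for Atf3 at PT D7 against uninjured (-0.46) and Dusp6 at PT D7 against PT D1 (-0.66). For the members' levels the block gives no new value, since the libraries are balanced. The same mix of subclusters in every library could not be made in microglia, where clusters are absent from conditions. Nor could it be made for PT D7 in NSPCs, where library 1 held no activated type B cell. At these depths Fosb and Atf3 in NSPCs and Klf10 in microglia rest on few UMIs.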
